A study of Aspergillus nidulans with 12 samples.

Results

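Peaks of VeA and LaeA were counted at 41 genes of 6 Aspergillus nidulans gene clusters that make nonribosomal peptides or hybrids of peptide and polyketide. The genes were chosen by locus number: penicillin (AN2621 to AN2623), terrequinone (AN8513 to AN8517), emericellamide (AN2545 and AN2547 to AN2549), aspyridone (AN8408 to AN8415), aspercryptin (AN7872 to AN7884) and inp (AN3490 to AN3497). They were set beside all other AN genes, a peak being assigned to the gene whose feature start the deposited lists name as nearest. Of 9485 AN genes named in at least 1 list, 35 were cluster genes. The other 6 cluster genes, AN8515, AN8517, AN7876, AN7881, AN7882 and AN3492, were named as nearest gene in no list.

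Nonribosomal peptide synthetases are large modular enzymes that join amino acids without a ribosome, and the genes for the synthetase, its tailoring enzymes, its transporters and often its own transcription factor lie side by side on the chromosome. The penicillin cluster makes the antibiotic, the terrequinone cluster a bisindolyl quinone, the emericellamide cluster cyclic lipopeptides, the aspyridone cluster a pyridone built by a polyketide and peptide hybrid synthetase, the aspercryptin cluster a lipopeptide, and the inp cluster a peptide aldehyde that inhibits the proteasome. VeA is a velvet-domain protein and LaeA a methyltransferase-like protein, which meet in the nucleus in the dark and are known as regulators of secondary metabolism. The sources used here gave no symbol for any of the 41 genes, so each is called by its locus number and no enzyme is assigned to a number.

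Chromatin came from 3 strains grown vegetatively in the dark for 24 h at 37 °C in liquid minimal medium with 1% glucose. It was fixed with 1% formaldehyde. In the VeA::FLAG and LaeA::FLAG strains the native gene carried a FLAG epitope at the C terminus together with a fungal selection marker, and each strain descended from 1 chosen transformant. The WT strain carried no FLAG tag. Mouse monoclonal anti-FLAG antibody was used on 3 libraries of each strain. Anti-rabbit IgG, here called IgG, was used on 1 library of each strain. The labels do not say whether the 3 libraries came from separate cultures, so the p-values measure only the spread between these libraries.

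The lists held 4252 to 5783 peaks in the VeA::FLAG libraries, 557 to 2471 in the LaeA::FLAG libraries and 134 to 1831 in the WT libraries. Calling on the pooled tags of a strain gave what are here named combined lists, of 5502 VeA::FLAG peaks and 3333 LaeA::FLAG peaks. Depth was low and uneven, with 1.46 to 1.89 M tags per VeA::FLAG library, 0.971 to 3.70 M per LaeA::FLAG library and 0.320 to 7.97 M per WT library. Signal is given as tags scaled to 10 M per library, and 1 tag was worth 5.28 to 6.87 such units in libraries of VeA::FLAG, 2.70 to 10.3 in those of LaeA::FLAG and 1.25 to 31.3 in those of WT.

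In the stretches of chromosome that hold the clusters, peaks of any nearest gene lay about as densely as along the genome, as counted by length below. Nearest a cluster gene were 18, 29 and 24 peaks in VeA::FLAG replicates 1, 2 and 3, 10, 9 and 3 peaks in LaeA::FLAG replicates 1, 2 and 3, and 1, 10 and 0 peaks in WT replicates 1, 2 and 3. The VeA::FLAG libraries were all above the others, whereas LaeA::FLAG and WT libraries overlapped. As a share of the peaks of its library the ranges overlapped throughout, with 0.423%, 0.511% and 0.415% in the VeA::FLAG replicates, 0.405%, 0.406% and 0.539% in the LaeA::FLAG replicates, and 0.746%, 0.546% and 0% in the WT replicates. The 0% of WT replicate 3 rests on 201 peaks and has a 95% Wilson interval of 0 to 1.88%, which covers counting error only.

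The mean share was 0.450% ± 0.0533 in VeA::FLAG and 0.431% ± 0.386 in WT (SD, n = 3 each), a difference of 0.0191 percentage points (p = 1 by an exact permutation test, two-sided, adjusted p = 1 over 6 tests). LaeA::FLAG, at 0.450% ± 0.0769, differed from WT by 0.0189 percentage points (exact permutation p = 1, adjusted p = 1). The difference of VeA::FLAG from LaeA::FLAG was 0.000125 percentage points (exact permutation p = 1, adjusted p = 1). Without WT replicate 3 the differences from WT were -0.196 percentage points for both tagged strains. On the log2(number + 0.5) scale the number of peaks at cluster genes was higher by 3.58 in VeA::FLAG than in WT and by 1.75 in VeA::FLAG than in LaeA::FLAG (exact permutation p = 0.1 and adjusted p = 0.3 for both), and by 1.82 in LaeA::FLAG than in WT (exact permutation p = 0.4, adjusted p = 0.8). With 3 libraries against 3 the smallest p these tests allow is 0.1. When each library was cut to its 134 top-scoring peaks, the VeA::FLAG differences in number were below 0, at -0.53 from WT and -0.53 from LaeA::FLAG. That cut left too few peaks at cluster genes to tell a direction. WT replicate 1, whose whole list is 134 peaks, had 1 of them. The best-ranked in VeA::FLAG, at AN7883 in replicate 2, ranked 381.

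**Figure D1:**
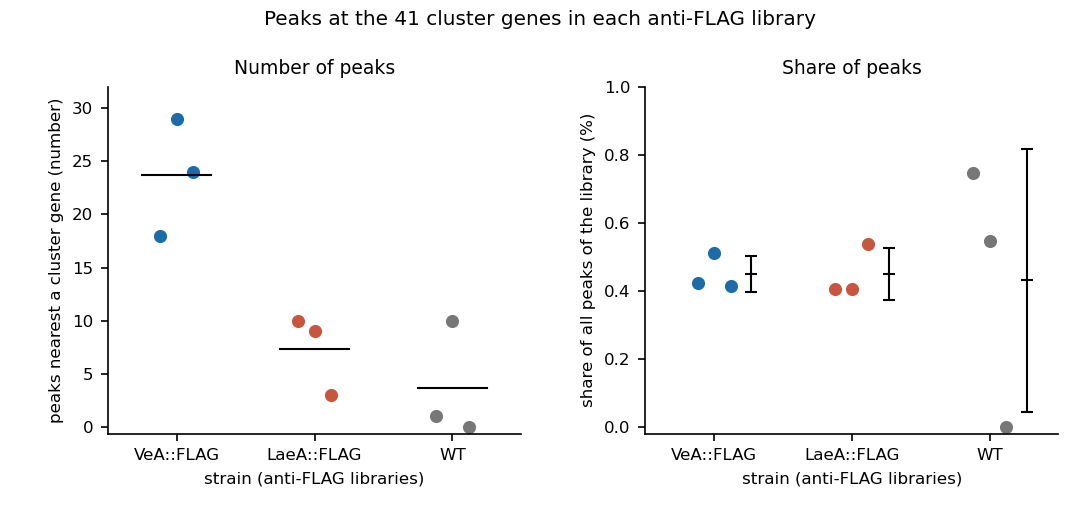
Peaks nearest the 41 cluster genes in each anti-FLAG library, as a number (left, the line is the mean of 3 libraries) and as a percentage of all peaks of that library (right, the bar is the mean with its SD). VeA::FLAG libraries held 18 to 29 such peaks, LaeA::FLAG libraries 3 to 10 and WT libraries 0 to 10, whereas the shares of the 3 strains overlapped.

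In the combined lists 19 of the 41 cluster genes had a VeA::FLAG peak, where 47.1% of all AN genes named in the lists had one. A LaeA::FLAG peak was nearest to 12 cluster genes, against a background of 29.6%. A peak of both strains was nearest to 9 cluster genes, AN2623, AN8513, AN2545, AN8408, AN8412, AN8415, AN7880, AN7883 and AN3496, against a background of 18.4%. Since genes without any region are missing from the background, the like-for-like share is that of the 35 named cluster genes, of which 54.3% had a VeA::FLAG, 34.3% a LaeA::FLAG peak and 25.7% both. Set over the 11121 genes of the lists and the reference table together, 46.3% of the 41 cluster genes had a VeA::FLAG peak beside 40.2% of all genes, and 29.3% had a LaeA::FLAG peak beside 25.2%. These counts describe 1 combined list per strain and have no test.

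Counted by length the clusters stood close to the genome. Within the 162 kb that the 6 clusters span, measured between the outermost regions assigned to their genes, lay 29 VeA::FLAG combined peaks, or 1.79 per 10 kb (exact Poisson 95% interval 1.20 to 2.57), and the 30.5 Mb covered by the lists held 1.81 per 10 kb. LaeA::FLAG had 18 combined peaks there, or 1.11 per 10 kb (0.657 to 1.75), beside 1.09 along the genome. These intervals cover counting error only. Among the clusters the VeA::FLAG density was 0.911 per 10 kb in penicillin, 0.963 in emericellamide, 1.48 in aspyridone, 2.09 in aspercryptin, 2.12 in inp and 5.56 in terrequinone. The terrequinone span held 3 peaks in 5.40 kb (1.15 to 16.2), of which 2 were nearest a cluster gene. Every cluster's interval included the genome's 1.81. For LaeA::FLAG the densities ran from 0.642 in emericellamide to 1.85 in terrequinone, and every interval included 1.09.

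**Figure D2:**
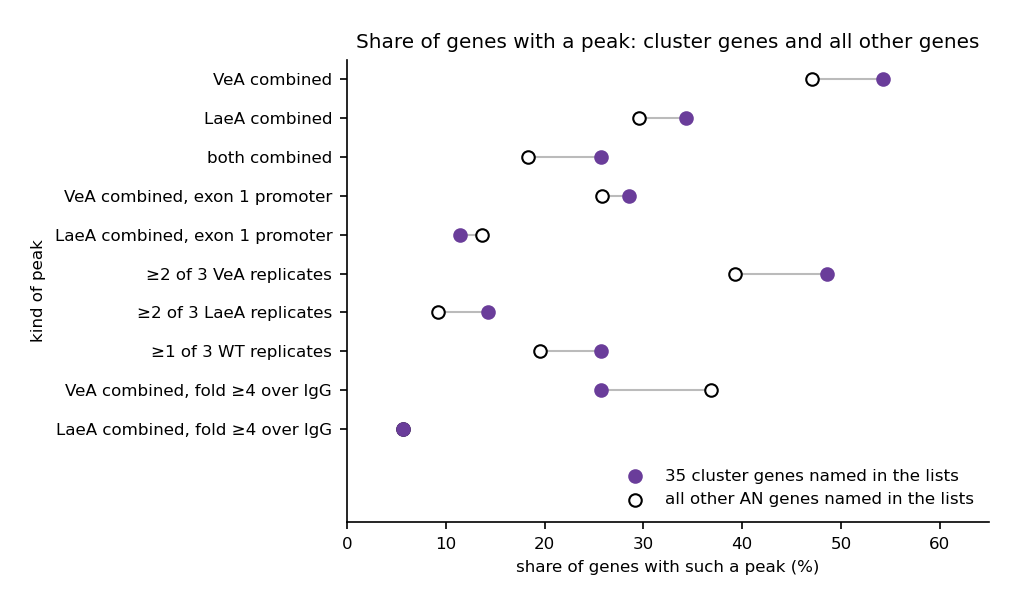
Share of genes with each kind of peak, in percent, for the 35 cluster genes named in the lists (filled) and for the 9450 other AN genes named in them (open). The cluster genes lay above the other genes for most kinds of peak, at 54.3% beside 47.1% for a VeA::FLAG combined peak. This held for WT peaks too, at 25.7% beside 19.6%. They lay below the other genes for LaeA::FLAG promoter peaks, at 11.4%, and for VeA::FLAG combined peaks at 4 times the IgG signal or more, at 25.7%. These shares have no test.

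Calls that returned between replicates were counted next, with shares of the 35 named cluster genes, since the background covers named genes only. In at least 1 VeA::FLAG replicate 28 cluster genes had a peak, or 80% (background 77%), in at least 2 replicates 17, or 48.6% (background 39.3%), and in all 3 replicates 7, or 20% (background 14.6%). The 7 were AN2623, AN2545, AN7873, AN7877, AN7880, AN7883 and AN7884, of which 5 belong to the aspercryptin cluster. For LaeA::FLAG 15 cluster genes, or 42.9%, had a peak in at least 1 replicate (background 38%), 5, or 14.3%, in at least 2 (background 9.24%) and 1, or 2.86%, in all 3 (background 2.16%). In WT 9 cluster genes, or 25.7%, had a peak in at least 1 library (background 19.6%), 0 in at least 2 (background 1.25%) and 0 in all 3 (background 0.105%). AN8413, AN7873, AN7880 and AN7883 had a peak in at least 2 replicates of both tagged strains, 11.4% of the named cluster genes (background 6.24%). AN7883 was the only cluster gene with a peak in all 6 tagged libraries (background 1.35%) and in no WT library besides (background 0.917%).

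A peak at the same gene was often not a peak at the same place. When the peaks of the 9 single libraries at cluster genes were chained wherever centres lay within 100 bp, they formed 84 sites, and the peaks of all other genes formed 18158 sites in the same way. At cluster genes 73 sites were called in 1 library, or 86.9%, beside 82.8% of the other sites, 6 in 2 libraries, or 7.14%, beside 11.4%, and 5 in 3 or more, or 5.95%, beside 5.77%. A VeA::FLAG and a LaeA::FLAG library met at 6 sites, or 7.14%, beside 7.35%. A tagged and a WT library met at 0 sites, beside 2.20% of the other sites, and 11 sites were called in WT alone, or 13.1%, beside 9.10%. The site called most often was the one upstream of AN7883, with 3 VeA::FLAG and 3 LaeA::FLAG libraries, followed by the one upstream of AN7880, with 2 of each.

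**Figure D3:**
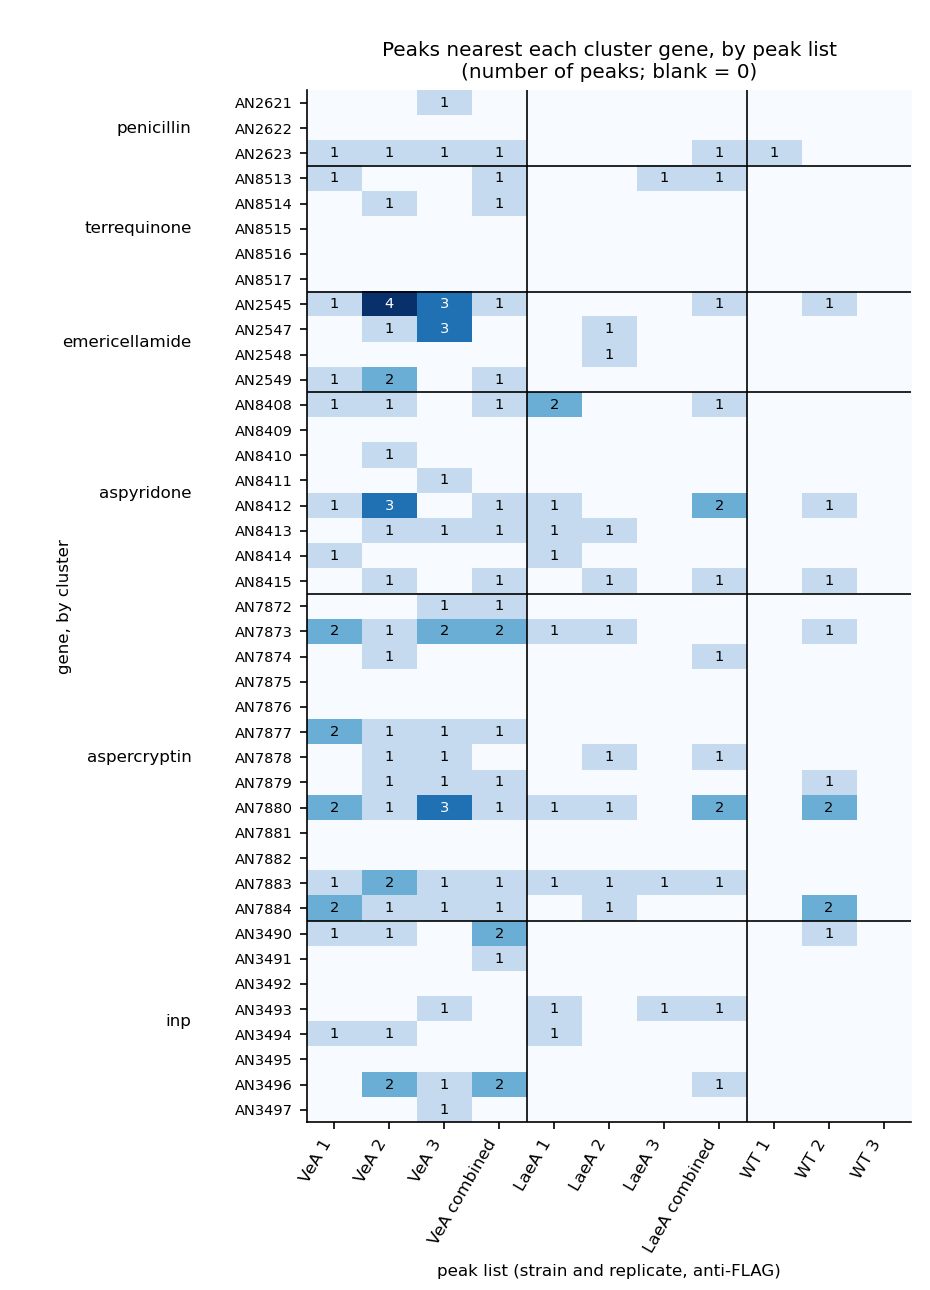
Number of peaks nearest each of the 41 cluster genes (rows, by cluster) in each anti-FLAG peak list (columns). AN7883 has a peak in each of the 8 VeA::FLAG and LaeA::FLAG lists and in no WT list, and 11 genes have none in any list.

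The aspercryptin cluster, near the left end of chromosome II, held the sites that recurred most. Its peaks numbered 9, 9 and 11 in VeA::FLAG replicates 1, 2 and 3, 3, 5 and 1 in LaeA::FLAG replicates 1, 2 and 3, and 0, 6 and 0 in WT replicates 1, 2 and 3. The combined lists had 8 peaks at 7 of its 13 genes for VeA::FLAG and 5 peaks at 4 genes for LaeA::FLAG. The 6 WT peaks all came from WT replicate 2, and none of them lay in the promoter of a first exon, here taken as up to 1.5 kb before exon 1 begins. Among the combined peaks 4 of 8 for VeA::FLAG and 2 of 5 for LaeA::FLAG lay within 100 kb of the left end of the chromosome.

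AN7883 had a promoter peak at chromosome II 117043 to 117307 in the VeA::FLAG combined list and at 117051 to 117327 in the LaeA::FLAG combined list. Its signal was 260.4, 621 and 391 tags per 10 M in VeA::FLAG replicates 1, 2 and 3, each against an IgG signal of 0 in the VeA::FLAG strain. In LaeA::FLAG replicates 1, 2 and 3 it was 301, 484 and 748, against 59.4, 51.4 and 84.4 for the IgG of that strain. All 6 tagged libraries were thus called here, with centres 304 to 485 bp upstream of exon 1, and no WT library had a peak nearest this gene. VeA::FLAG replicate 2 had a further peak of 217 tags per 10 M, 145 bp upstream. In the combined lists the signal was 390.4 in VeA::FLAG, with IgG at 0, and 575 in LaeA::FLAG, with IgG at 89.5. By peak score these ranked in the top 18.2% of the VeA::FLAG and the top 8.04% of the LaeA::FLAG combined list.

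The IgG libraries differed from one another at AN7883. Over the merged region of 616 bp that the deposited IgG tables give there, the VeA::FLAG IgG library had 11.9 tags per 10 M, the LaeA::FLAG IgG library 235 and the WT IgG library 245. Per 100 bp this is 1.94 in the VeA::FLAG library, 38.1 in the LaeA::FLAG library and 39.7 in the WT library, where the median of all regions outside the clusters was 15.6, 36.8 and 30.5 for the same libraries. The VeA::FLAG IgG library was thus low at this site while the other 2 were near or above their medians. The part of this in the VeA::FLAG calls was not tested.

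AN7880 came next. Upstream of its first exon VeA::FLAG had 263 tags per 10 M in replicate 1 and 165 in replicate 3, with IgG at 4.77 in both, and 265 in the combined list at 102409 to 102673. LaeA::FLAG had 304 in replicate 1 and 598 in replicate 2, with IgG at 64.1 and 35.8, and 339 in the combined list at 102411 to 102687, with IgG at 66.0. The combined centres lay 268 bp upstream in VeA::FLAG and 260 bp upstream in LaeA::FLAG, so both strains met at 1 place, where WT had no peak. Inside the gene the peaks scattered, with 354 tags per 10 M in VeA::FLAG replicate 1, 309 in replicate 2, 130.5 and 172 in replicate 3, 159 in the LaeA::FLAG combined list, and 307 and 430.4 in WT replicate 2. The LaeA::FLAG combined peak inside the gene lay within 100 bp of a WT peak.

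Between AN7877 and AN7878, which are transcribed away from each other, every VeA::FLAG library and LaeA::FLAG replicate 2 had a peak. Assigned to AN7877 were 202 tags per 10 M in VeA::FLAG replicate 1, 515 in replicate 2 and 372 in the VeA::FLAG combined list, and a peak of 227 in replicate 3 centred 15 bp inside the gene. Assigned to AN7878 were 271 in VeA::FLAG replicate 3, 520.3 in LaeA::FLAG replicate 2 and 312 in the LaeA::FLAG combined list. The 2 combined peaks lay within 100 bp of each other, though the lists assign them to different genes. IgG was high at both, at 136 for the VeA::FLAG and 139 for the LaeA::FLAG combined peak. Away from this site AN7877 had a peak of 184 in VeA::FLAG replicate 1 and AN7878 a peak of 217 in VeA::FLAG replicate 2.

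The remaining aspercryptin genes had peaks that lay mostly at different places. AN7873 had 263 and 178 tags per 10 M in VeA::FLAG replicate 1, 166 in replicate 2, 261 and 264 in replicate 3, 199 and 165 in the VeA::FLAG combined list, 216 in LaeA::FLAG replicate 1, 417 in LaeA::FLAG replicate 2 and 299 in WT replicate 2. Only the peak of LaeA::FLAG replicate 2 among these was in its exon 1 promoter, 276 bp upstream. The peaks of VeA::FLAG replicate 2 and LaeA::FLAG replicate 1 met at a site within AN7873, at 82659 to 82869. Each VeA::FLAG combined peak of AN7873 also had a VeA::FLAG replicate peak within 100 bp. AN7884 had peaks along its exons, with 222 and 178 in VeA::FLAG replicate 1, 230 in replicate 2, 213 in replicate 3, 144 in the VeA::FLAG combined list, 237 in LaeA::FLAG replicate 2, and 268 and 378 in WT replicate 2. No pair of these libraries shared a place within 100 bp at AN7884. AN7879 had 354 in VeA::FLAG replicate 2, in its promoter, 158 in VeA::FLAG replicate 3, 211 in the VeA::FLAG combined list and 158 in WT replicate 2. AN7872 had 390.4 in the VeA::FLAG combined list, with IgG at 169, and 227 in VeA::FLAG replicate 3, with IgG at 0. AN7874 had 1 peak in VeA::FLAG replicate 2 and 1 in the LaeA::FLAG combined list, and AN7875 had none.

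**Figure D4:**
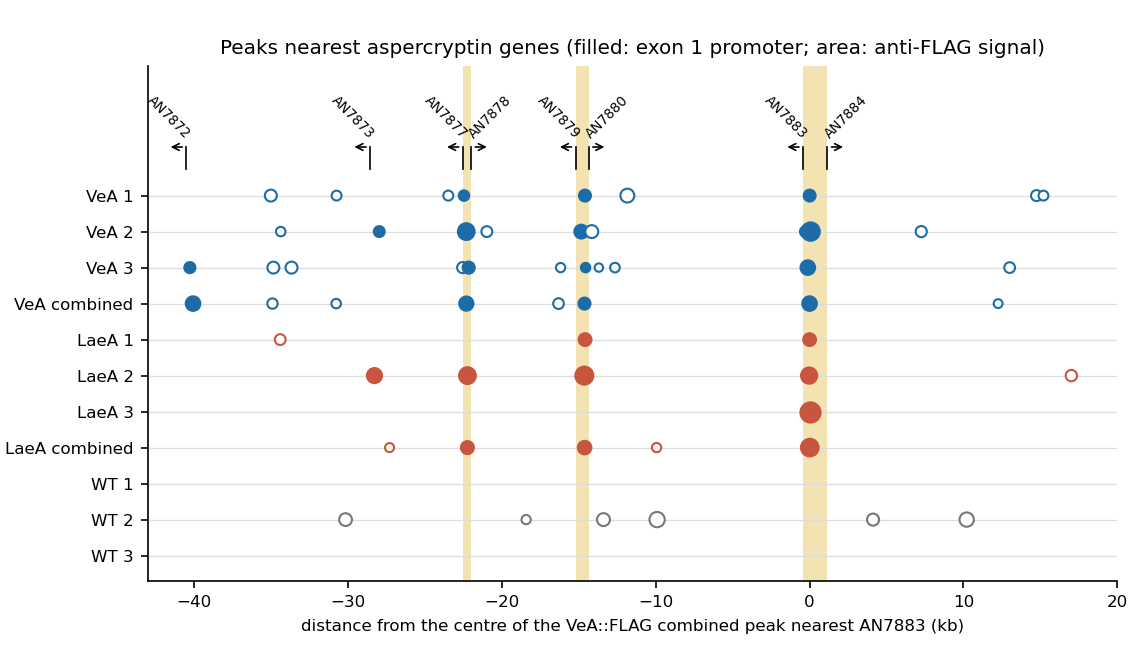
Peaks nearest aspercryptin genes in each list, by distance in kb from the centre of the VeA::FLAG combined peak upstream of AN7883. Filled circles are exon 1 promoter peaks, circle area follows the anti-FLAG signal, arrows mark exon 1 starts with their direction where the lists fix it, and the shaded gaps separate gene pairs transcribed away from each other. Most filled circles lie in the 3 gaps. This follows largely from the definition, since each gap is the stretch upstream of exon 1 for both genes beside it. The 6 WT peaks lie outside the gaps.

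Of the 5 sites called in 3 or more libraries, 4 lay between divergently transcribed neighbours, a feature that was looked at after the peaks had been seen, and the other lay at the termination site of AN8408. How many of the 1048 other sites called in 3 or more libraries lay in such gaps was not counted. The strand and exon 1 start of a gene follow from the distances in the lists, and pairs with consecutive locus numbers and starts at most 2 kb apart could be found 4 times among the cluster genes: AN7877 and AN7878 (532 bp apart), AN7879 and AN7880 (843 bp), AN7883 and AN7884 (1571 bp), and AN8413 and AN8414 (822 bp). A VeA::FLAG combined peak lay in 4 of these 4 gaps, where 65.3% of 430 other such gaps had one. A LaeA::FLAG combined peak lay in 3 of 4, where 35.1% of other gaps had one, and peaks of at least 2 LaeA::FLAG replicates lay in 3 of 4, where 10.2% of other gaps had them. No WT peak lay in the 4 gaps, and 8.84% of other gaps had one. The count of 4 pairs is a description with no test, and only pairs whose starts the peaks themselves reveal could enter on either side. The 4 gaps hold the same 4 sites named above, so the gap counts are not separate from them. Between AN7883 and AN7884 the combined centres lay 418 and 432 bp from the start of AN7883 and 1153 and 1139 bp from that of AN7884 (VeA::FLAG given before LaeA::FLAG), so the site is within 1.5 kb upstream of both genes although the lists name AN7883 alone.

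In the aspyridone cluster, on chromosome V, the gap between AN8413 and AN8414 recurred as well. Upstream of AN8413 VeA::FLAG replicate 2 had 613 tags per 10 M and the VeA::FLAG combined list 386, at 410757 to 411021 with IgG at 160.0. LaeA::FLAG replicates 1 and 2 had 559 and 567 there, with IgG at 118 and 94.7, 141 and 126 bp upstream, yet the LaeA::FLAG combined list had no peak at AN8413. Over the merged region of 487 bp the VeA::FLAG IgG library had 303, the LaeA::FLAG one 267 and the WT one 311, above 95.2% to 96.8% of all regions, or above 86.9% to 89.3% when taken per base pair. A site where the IgG of all 3 strains was high was thus also one where both tags were called, and the part of the IgG level in it was not tested. VeA::FLAG replicate 3 had a peak of 155 at the second exon of AN8413.

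At the other aspyridone genes the strains met less often. AN8408 had peaks downstream, at its termination site, of 164 and 188 tags per 10 M in VeA::FLAG replicates 1 and 2, 137 in the VeA::FLAG combined list, 343 in LaeA::FLAG replicate 1 and 301.7 in the LaeA::FLAG combined list. IgG was 0 at the VeA::FLAG peaks, and 76.8 and 91.4 at the LaeA::FLAG peaks, and the 2 combined peaks lay within 100 bp of each other. A further peak of 213 in LaeA::FLAG replicate 1 lay at its second exon. AN8412 had promoter peaks of 328 in VeA::FLAG replicate 1 and 205 in the VeA::FLAG combined list, and one of 211 in replicate 2 centred 23 bp inside the gene. Within AN8412 lay peaks of 151 and 243 in VeA::FLAG replicate 2, 332 in LaeA::FLAG replicate 1, 217 and 256 in the LaeA::FLAG combined list and 369 in WT replicate 2. No LaeA::FLAG peak was in its exon 1 promoter.

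AN8415 had signal of both tags near its start, but not at 1 place. VeA::FLAG had 483 tags per 10 M in replicate 2 and 360 in the combined list, 2 and 92 bp upstream and both with IgG at 0. LaeA::FLAG had 278 in replicate 2, 290 bp upstream, and 265 in the combined list, 220 bp inside the gene. WT replicate 2 had a peak of 272 at its second exon. AN8410, AN8411 and AN8414 had 1 or 2 peaks each, all in single libraries, and AN8409 had none.

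In the penicillin cluster, on chromosome VI, the peaks were at AN2623. Its promoter peak had 288 and 227 tags per 10 M in VeA::FLAG replicates 2 and 3, 307 in the VeA::FLAG combined list at 3359926 to 3360190, and 264 in the LaeA::FLAG combined list at 3359938 to 3360214. These combined signals were 2.34 and 2.31 times the IgG signal of their strain (VeA::FLAG given before LaeA::FLAG), and no single LaeA::FLAG library was called there. Near the end of the gene lay a peak of 199 in VeA::FLAG replicate 1 and one of 194 in WT replicate 1. AN2621 had 1 peak, in VeA::FLAG replicate 3, 7132 bp inside its first exon, and AN2622 had none in the 11 lists.

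The emericellamide cluster, on chromosome VII, had combined densities below those along the genome in both strains, at 0.963 per 10 kb beside 1.81 for VeA::FLAG and 0.642 beside 1.09 for LaeA::FLAG, within their counting intervals. Its peaks numbered 2, 7 and 6 in VeA::FLAG replicates 1, 2 and 3, 0, 2 and 0 in LaeA::FLAG replicates 1, 2 and 3, and 0, 1 and 0 in WT replicates 1, 2 and 3. AN2545 had VeA::FLAG peaks 1229 and 1215 bp upstream in replicates 1 and 2, of 310.1 and 251 tags per 10 M with IgG at 0, which the combined list did not hold. Closer to its start lay peaks of 267 in VeA::FLAG replicate 2, 354 in replicate 3 and 154 in the combined list. Further peaks of AN2545 lay within the gene, at 293 and 182 in VeA::FLAG replicate 2, 179 and 158 in replicate 3, 205 in the LaeA::FLAG combined list and 365 in WT replicate 2.

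AN2549 had an intergenic site 1210 to 1252 bp upstream that returned in VeA::FLAG alone. It had 140.4 and 380.3 tags per 10 M in VeA::FLAG replicates 1 and 2, with IgG at 26.2 and 7.16. The combined list gave 233, at 4327185 to 4327449. Over the merged region of 619 bp the VeA::FLAG IgG library had 33.4, above 46.2% of all regions. The LaeA::FLAG one had 334, above 98.1%, and the WT one 220, above 89.5%. Taken per base pair these levels were above 36.7%, 88.3% and 57.6% of regions, in the same order. The part of this unequal IgG in the calls was not tested. A second peak of VeA::FLAG replicate 2, of 185, lay at the end of the gene. AN2547 had 127 in VeA::FLAG replicate 2, 185, 227 and 446 in VeA::FLAG replicate 3 and 402 in LaeA::FLAG replicate 2, at 5 different places and in no combined list. AN2548 had 1 peak, in LaeA::FLAG replicate 2.

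The terrequinone cluster, on chromosome V, had no peak in any WT library. AN8513 had 357 tags per 10 M in VeA::FLAG replicate 1 and 147 in the VeA::FLAG combined list, 1654 and 1652 bp inside the gene, and 315 in LaeA::FLAG replicate 3 and 196 in the LaeA::FLAG combined list, 194 and 199 bp inside it. The tags were thus called at different places of the same gene. AN8514 had 1 peak in VeA::FLAG replicate 2 and 1 in the VeA::FLAG combined list, at its second exon. AN8516 had no peak in the 11 lists.

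In the inp cluster, also on chromosome II, no combined peak was in an exon 1 promoter. AN3496 had 2 sites in its second exon. At one VeA::FLAG had 457 tags per 10 M in replicate 2 and 190 in the combined list, and at the other 172 in replicate 2, 182 in replicate 3 and 133 in the combined list. LaeA::FLAG had 165 in the combined list elsewhere in the gene. AN3490 had 298 in VeA::FLAG replicate 1, 275 in replicate 2, 129 and 130.5 in the VeA::FLAG combined list, and 343 in WT replicate 2 at its start. AN3493 had 254 in VeA::FLAG replicate 3, 422 in LaeA::FLAG replicate 1, 246 in LaeA::FLAG replicate 3 and 144 in the LaeA::FLAG combined list. AN3494 had 205 and 217 in VeA::FLAG replicates 1 and 2 and 190.1 in LaeA::FLAG replicate 1, each at another place. AN3491 and AN3497 had 1 VeA::FLAG peak each and AN3495 had none.

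An exon 1 promoter peak was nearest to 10 of the 35 named cluster genes in the VeA::FLAG combined list, or 28.6% (background 25.8%), to 4 in the LaeA::FLAG combined list, or 11.4% (background 13.7%), and to 3, AN2623, AN7880 and AN7883, in both, or 8.57% (background 7.97%). The other 7 for VeA::FLAG were AN2545, AN2549, AN8412, AN8413, AN8415, AN7872 and AN7877, and the other for LaeA::FLAG was AN7878. In single libraries the promoter peaks at cluster genes numbered 6, 12 and 7 in VeA::FLAG replicates 1, 2 and 3, 3, 6 and 1 in LaeA::FLAG replicates 1, 2 and 3, and 0 in each WT replicate, whose 1, 10 and 0 peaks at cluster genes lay elsewhere. Of all other peaks 41.3% to 41.7% were promoter peaks in VeA::FLAG libraries, 38.4% to 45.7% in LaeA::FLAG libraries and 23.0% to 35.3% in WT libraries. WT replicates 1 and 3 had 1 and 0 peaks at cluster genes in all, so their counts of 0 say little, and the comparison with WT rests on the 10 peaks of WT replicate 2.

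Most combined peaks at cluster genes were weak against IgG. Anti-FLAG signal was at least 4 times the IgG signal in 9 of 22 VeA::FLAG combined peaks, or 40.9%, beside 75.3% of the other peaks of that list, and in 2 of 14 LaeA::FLAG combined peaks, or 14.3%, beside 18.1% of the others. The VeA::FLAG peaks that passed belonged to 9 cluster genes, 25.7% of those named (background 36.8%), and the LaeA::FLAG peaks to AN7880 and AN7883, 5.71% of those named (background 5.65%). Median IgG signal at VeA::FLAG combined peaks was 52.5 tags per 10 M at cluster genes and 19.1 elsewhere, while at LaeA::FLAG combined peaks it was 74.0 at cluster genes and 92.8 elsewhere. In VeA::FLAG replicates 2 and 3 the median IgG signal was 0 both at cluster genes and elsewhere, and in replicate 1 it was 20.3 at cluster genes and 2.39 elsewhere. The excess of IgG was thus found in the combined list, which pools the 3 replicates, and in replicate 1, where 1 IgG tag was worth 4.77 tags per 10 M. In replicates 2 and 3 IgG was 0 at 58.6% and 58.3% of cluster peaks, beside 54.1% and 56.2% of the others. Medians of 0 cannot show an excess or its absence. All these peaks share the single IgG library of their strain, of 2.10 M tags for VeA::FLAG and 10.6 M for LaeA::FLAG.

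**Figure D5:**
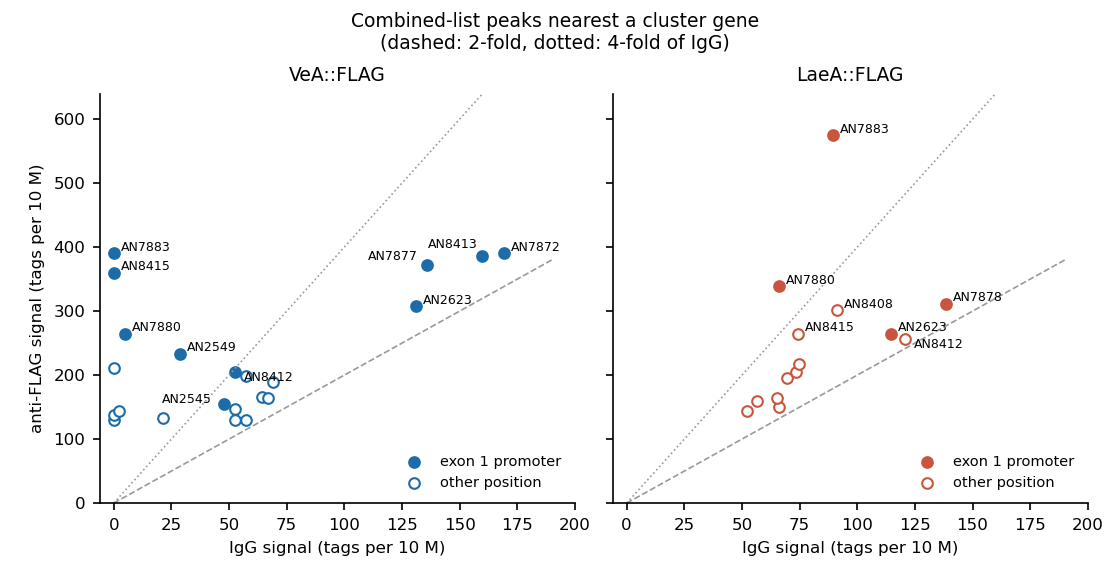
Anti-FLAG signal against IgG signal, both in tags per 10 M, of the 22 VeA::FLAG (left) and 14 LaeA::FLAG (right) combined peaks nearest a cluster gene, with exon 1 promoter peaks filled. AN7883 is the highest LaeA::FLAG point at 575 against an IgG signal of 89.5, and 12 of 14 LaeA::FLAG points lie between the 2-fold and the 4-fold line.

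Support from single libraries was similar at cluster genes and elsewhere. Of the VeA::FLAG combined peaks at cluster genes 18 of 22 had a peak of at least 1 VeA::FLAG replicate within 100 bp, or 81.8%, beside 77.0% of the others, and 5 had at least 2, or 22.7%, beside 30.1%. For LaeA::FLAG the counts were 6 of 14, or 42.9%, beside 47.4%, and 2 of 14, or 14.3%, beside 10.1%. A combined peak of the other strain within 100 bp was found for 5 of 22 VeA::FLAG peaks, or 22.7%, beside 15% of the others, and for 5 of 14 LaeA::FLAG peaks, or 35.7%, beside 24.8%. A WT peak within 100 bp was found for 0 of 22 VeA::FLAG peaks, beside 2.41% of the others, and for 1 of 14 LaeA::FLAG peaks, or 7.14%, beside 4.34%. Within exons lay 5 of 22 VeA::FLAG peaks, or 22.7%, beside 4.36% of the others, and 3 of 14 LaeA::FLAG peaks, or 21.4%, beside 5.51%. The exon peaks belonged to AN8513, AN7873, AN7884 and AN3496 for VeA::FLAG and to AN2545, AN8412 and AN7880 for LaeA::FLAG. By peak score the cluster peaks reached the top 10% of a combined list only at AN7883 in LaeA::FLAG.

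Other genes of nonribosomal peptide synthesis, listed from general knowledge with symbols where the reference table gave them, were counted in the same way. Of 8 such genes, a VeA::FLAG combined peak was nearest to 4, AN6236 (sidD), AN3396, AN10576 (ivoA) and AN2064, against a background of 47.1%. A LaeA::FLAG combined peak was nearest to 2, AN3396 and AN1242 (nrps1), against a background of 29.6%. AN6140, a phosphopantetheinyl transferase gene and not a synthetase gene, had no peak in the 11 lists. AN0607 (sidC), AN3396 and AN1242 had a peak in at least 2 LaeA::FLAG replicates (background 9.24%). AN3396, AN1242 and AN9226 had a peak in at least 2 VeA::FLAG replicates (background 39.3%). Only AN3396 had an exon 1 promoter peak in both combined lists (background 7.97%). No WT library had a peak at any of the 8 (background 19.6% for at least 1 WT library).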

How the data were processed

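Anti-FLAG ChIP-seq libraries (3 each of VeA::FLAG, LaeA::FLAG and WT) and IgG libraries (1 each) were grouped by the labels. The authors mapped reads with bowtie2, called peaks and annotated them with HOMER (version 4.11 per the submitters' processing notes), pooling replicates for the combined lists. The deposited signal gives tags per peak, which the authors scaled to 10 M tags per library, so no model for counts was used. The deposited peak score ranks peaks within a list, and the deposited distance runs to the nearest exon start. The IgG tables hold IgG signal over merged regions, not peaks. Coordinates are those of the lists (FGSC A4 assembly).

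Peaks were assigned by the nearest feature start. An IgG signal under 1 tag was set to 1 tag for the 4-fold rule. Groups of 3 libraries were compared by two-sided exact permutation tests with Benjamini-Hochberg adjustment over 6 tests (Python 3, SciPy and pandas), and counts in combined lists have no test. Code was tested on simulated data. Values of every peak are given for 21 genes, those with a combined peak of both strains, a peak in at least 2 of 3 replicates of a tagged strain or an exon 1 promoter peak in a combined list, and further genes by counts. AN8514, AN6236, AN10576, AN2064 and AN0607 are named outside that rule, and the divergent pairs were chosen after the values were seen. Genes, lists and clusters were chosen with earlier results of these data known. A planned grouping by enzyme role was not used, because no source pairs these locus numbers with roles. Of the 41 genes, 38 were matched in the ASM1142v1 table, which gave names only.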

Additional observations from a re-analysis of the deposited data

How the results depend on the processing

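No alternative could bring any of the 6 permutation tests to an exact permutation p below 0.1, the smallest that 3 libraries against 3 allow. In 15 of 72 alternatives the direction turned. Leaving out 1 library moved the difference in share between -0.196 and 0.177 percentage points for VeA::FLAG against WT, between -0.196 and 0.177 for LaeA::FLAG against WT, and between -0.0306 and 0.0446 for VeA::FLAG against LaeA::FLAG. The direction turned without WT replicate 3 or VeA::FLAG replicate 2 for VeA::FLAG against WT, without WT replicate 3 or LaeA::FLAG replicate 3 for LaeA::FLAG against WT, and without VeA::FLAG replicate 2, LaeA::FLAG replicate 1 or LaeA::FLAG replicate 2 between the tagged strains. The log2 difference in number stayed positive, at 2.58 to 4.78, 0.83 to 3.02 and 1.25 to 2.04 in the same order of comparisons.

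With the 134 top-scoring peaks of each library, the difference in share was -0.249 percentage points for VeA::FLAG against WT, 0 for LaeA::FLAG against WT and -0.249 for VeA::FLAG against LaeA::FLAG, and the log2 difference in number was -0.53, 0 and -0.53. Too few peaks at cluster genes were left by this cut for these differences to tell a direction. Between the tagged strains the share differed by -0.0205 at 4 times IgG or more and by -0.0326 with promoter peaks only. With the gene of the annotation column, an alternative chosen after seeing the data, it differed by -0.0361, and VeA::FLAG against WT differed by -0.0116. The cause was not tested.

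At 4 times IgG or more, 9 cluster genes had a VeA::FLAG combined peak, 2 a LaeA::FLAG peak and 2 both, and 4 and 2 had one in the exon 1 promoter (VeA::FLAG, then LaeA::FLAG). Combined peaks with at least 2 of 3 replicates within 100 bp belonged to 5, 2 and 2 cluster genes, and promoter peaks of this kind to 4 and 2. Counted by a peak in at least 2 of 3 replicate lists, 5 cluster genes had a LaeA::FLAG peak, 4 a peak of both strains and 6 a VeA::FLAG promoter peak. The other 17 of 30 alternatives kept these counts within 1.5 times.

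With the replicate number as a block the log2 differences in number, 3.58, 1.82 and 1.75, had exact p of 0.25, 0.5 and 0.25, where 0.25 is the smallest p of 3 pairs, and the shares, which differed by 0.0191, 0.0189 and 0.000125 percentage points, had exact p of 1. Same-numbered libraries did not deviate together over genes (r between -0.0120 and 0.0365), so the numbers were not taken to pair them. The short lists of WT replicates 1 and 3, of 134 and 201 peaks, limit how well shares can be compared with WT. Depth differed between these 2 libraries, at 7.97 M tags in WT replicate 1 and 0.320 M in WT replicate 3.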
